A study of Mus musculus with 4 samples.

Results

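Chromatin accessibility was examined at 10 genes that act on proliferation and the cell cycle in thymocytes passing beta-selection: Myc, Mycn, Myb, Gfi1, Ccnd2, Ccnd3, Cdk6, Cdkn2c, Cdkn1b and E2f2. They are 10 of 21883 protein-coding genes in the annotation. Peaks of the 4 deposited ATAC-seq lists were taken within 100 kb on each side of Myc and Myb and within 20 kb on each side of the other genes (mm10). Peaks of different lists that overlapped by at least 1 bp were merged into regions, which gave 63 regions at these genes of 36224 in all. The cells were DN3 thymocytes, the double-negative stage at which thymocytes rearrange the beta chain gene of their receptor, from the thymus of wild-type mice. They were flow sorted and then split on magnetic beads using anti-EpCAM into an EpCAM-positive fraction, held by the beads, and an EpCAM-negative fraction that passed unlabelled. Each fraction has 2 libraries. The labels give no age, strain or sex, and do not say whether the libraries came from separate animals, so p-values measure only the spread between these libraries, which may be technical. In such bulk libraries, fewer cells with an open site and a site that is less open in each cell cannot be told apart.

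At beta-selection, a pre-T cell receptor signal moves DN3 cells out of quiescence and into rapid division. D-type cyclins bind CDK4 or CDK6 and release E2F factors from the retinoblastoma proteins, while inhibitors of the INK4 and CIP/KIP families hold these kinases back. MYC drives growth of the dividing cells, and MYB and GFI1 are transcription factors that thymocyte precursors need around this step.

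The lists held 24598 to 29030 peaks per library. Their lowest −log10 q was 2.07 and 2.023 for EpCAM-positive and 1.323 and 1.335 for EpCAM-negative libraries, so the lists ended at unlike limits. No read totals were given in the sources used here. The number of fragments at each peak's summit, a peak's height, was therefore solved from the authors' fold and −log10 p values. The lowest common background, a relative measure of depth, was 0.388 and 0.383 fragments for EpCAM-positive and 0.29 and 0.286 for EpCAM-negative libraries, 1.34 times higher in the former. Depth therefore moves with the fraction, and its part in the counts of called regions was not tested. Among 10 genes that mark DN3 cells or their T lineage, 5 or 6 had a peak at a RefSeq start in each library, with Il2ra, Notch1, Cd3e and Cd3g in all 4 and Rag1, Dntt and Tcf7 in none. Genes of earlier thymocytes had one in 1 to 3 of 5 cases, of later thymocytes in 2 of 5, of gamma-delta T cells in 1 or 2 of 4, of myeloid cells in 0 or 1 of 5 and of NK cells in 0 or 1 of 4. Of the other lists, 0 of 5 B cell genes and 0 of 3 erythroid genes had one. Of 5 thymic epithelial genes, Cldn4 had one in each library and Foxn1, Psmb11, Krt5 and Krt8 had none.

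The promoter sequences of the genes are given for starts with and without a called peak. RefSeq promoter windows (GRCm38.p6) were found for 8 of the 10 genes, with 12 starts in all, and not for Myc and Ccnd2. The 250 bases before 6 of these starts are shown: Cdkn1b, which had the most fragments at its start; the inner and outer starts of Ccnd3, the former called in all 4 lists and the latter in none; Myb; Mycn, called at its start in 1 list; and E2f2, where no list had a peak at a start. Sequences run 5′ to 3′ in the direction of transcription. Capitals mark matches, on either strand, to the letters of 13 motifs. These are E2F with TTGGCGC and with TTCCCGC, the MYC E-box CACGTG, the E protein E-box with CAGCTG and with CAGGTG, and TGTGGT for RUNX. Of the others, ETS is CCGGAA, MYB is TAACNG, the GATA factor motif is read as AGATAA, TCF1/LEF1 is CTTTGA and NFY is CCAAT. SP/KLF is GGGCGG, AP-1 is TGANTCA, CREB is TGACGTC and RBPJ is GTGGGAA.
Cdkn1b, chr6:134920151-134920400, plus strand: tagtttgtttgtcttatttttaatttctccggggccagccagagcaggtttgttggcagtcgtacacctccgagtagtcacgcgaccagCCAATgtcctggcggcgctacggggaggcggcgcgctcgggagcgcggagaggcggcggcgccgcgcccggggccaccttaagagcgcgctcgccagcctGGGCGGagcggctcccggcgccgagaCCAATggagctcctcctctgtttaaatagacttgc
Ccnd3 inner start, chr17:47593217-47593466, plus strand: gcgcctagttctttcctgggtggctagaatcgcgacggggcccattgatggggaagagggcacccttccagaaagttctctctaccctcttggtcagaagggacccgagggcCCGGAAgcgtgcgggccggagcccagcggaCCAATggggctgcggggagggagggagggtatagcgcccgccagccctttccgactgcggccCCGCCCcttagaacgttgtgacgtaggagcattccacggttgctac
Ccnd3 outer start, chr17:47504801-47505050, plus strand: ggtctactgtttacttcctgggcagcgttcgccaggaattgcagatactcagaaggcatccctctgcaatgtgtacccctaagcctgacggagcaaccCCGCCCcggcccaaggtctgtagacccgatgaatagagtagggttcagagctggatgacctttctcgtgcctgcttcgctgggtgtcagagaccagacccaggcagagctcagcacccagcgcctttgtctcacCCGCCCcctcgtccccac
Myb, chr10:21160985-21161234, minus strand: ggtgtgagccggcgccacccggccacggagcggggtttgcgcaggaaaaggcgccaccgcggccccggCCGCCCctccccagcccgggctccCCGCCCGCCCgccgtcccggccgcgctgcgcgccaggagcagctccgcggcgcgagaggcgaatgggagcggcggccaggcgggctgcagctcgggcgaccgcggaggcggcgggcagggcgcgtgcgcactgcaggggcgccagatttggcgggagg
Mycn, chr12:12941837-12942086, minus strand: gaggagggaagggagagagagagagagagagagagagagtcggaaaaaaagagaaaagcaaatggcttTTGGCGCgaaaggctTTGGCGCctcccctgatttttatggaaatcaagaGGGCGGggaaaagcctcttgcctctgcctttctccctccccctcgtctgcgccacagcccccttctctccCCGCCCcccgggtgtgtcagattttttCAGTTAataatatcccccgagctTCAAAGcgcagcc
E2f2 outer start, chr4:136172024-136172273, plus strand: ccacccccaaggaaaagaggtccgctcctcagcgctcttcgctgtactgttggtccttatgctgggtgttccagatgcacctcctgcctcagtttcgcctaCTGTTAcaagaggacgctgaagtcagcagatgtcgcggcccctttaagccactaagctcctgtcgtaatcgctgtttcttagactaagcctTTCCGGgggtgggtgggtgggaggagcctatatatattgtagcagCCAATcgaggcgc

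The SP/KLF letters were present before 7 of the 12 starts, against 42.6% of 21262 promoters of protein-coding genes. NFY letters were before 4 of 12 (35.4% of all promoters), with 2 matches at Cdkn1b, 3 at the inner E2f2 start and 1 each at the inner Ccnd3 and outer E2f2 starts. E2F letters were before 2 starts, those of Mycn and the outer start of Cdkn2c (7.2% of all promoters). The MYC E-box was before 1, at Cdk6 (6.63%). ETS letters were before the inner Ccnd3 and outer E2f2 starts (15% of all promoters), and MYB letters before Mycn and the outer E2f2 start (17.9%). E protein E-boxes were before the outer Gfi1 and inner E2f2 starts (26.7%), and TCF1/LEF1 letters before Mycn (12.7%). RUNX (12.4%), GATA (8.81%), AP-1 (6.13%), CREB (3.36%) and RBPJ (5.26%) letters were before none of the 12. The G and C content was 81.2% at Myb, 64.4% at Cdkn1b, 64.8% at the inner and 59.6% at the outer Ccnd3 start, 55.2% at the outer E2f2 start and 54.8% at Mycn, with a median of 55.6% over all promoters. These matches are descriptions of letters in a window.

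Most regions at the 10 genes were called in both fractions, and few were called in both lists of 1 fraction alone. Of the 63 regions, 35 (55.6%) were called in all 4 lists, against 46.3% of all regions. EpCAM-positive-only regions, called in both EpCAM-positive and neither EpCAM-negative list, numbered 2 (3.17%), at Ccnd3 and Cdkn2c, against 4.4% of all regions. EpCAM-negative-only regions, the reverse, numbered 0, against 1.72% of all regions. Of the remaining 26 regions, 6 were called in 3 lists, 7 in 1 list of each fraction and 13 in 1 list. Over all 36224 regions these counts were 3927, 2518 and 10801. The share called in 1 list was 20.6% at the 10 genes and 29.8% over all regions. An exact permutation test of 2 against 2 libraries cannot go below a two-sided p of 0.33, so single regions were not tested. Leaving out 1 library, so that its fraction needed 1 call, gave 5, 6, 3 and 4 EpCAM-positive-only regions without EpCAM-positive replicates 1 and 2 and EpCAM-negative replicates 1 and 2. These were 8.33, 9.84, 4.84 and 6.78% of the regions at the 10 genes, against 16.7, 13.3, 8.18 and 8.61% of all regions, so the share over all regions rose too. In the same order, 2, 0, 5 and 1 regions were EpCAM-negative-only (3.33, 0, 8.06 and 1.69%, against 3.44, 4.69, 9.37 and 7.5% of all).

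The number of peaks at the 10 genes did not separate the fractions. The EpCAM-positive lists had 54 and 50 peaks there and the EpCAM-negative lists 45 and 53, so the groups overlapped (means of 52 ± 2.83 and 49 ± 5.66 (SD, n = 2 each), exact permutation p = 0.67, two-sided). Without EpCAM-negative replicate 1 the difference of 3 peaks became −1. Peaks covered 25.9 and 23.9 kb in the EpCAM-positive libraries and 22.4 and 23.4 kb in the EpCAM-negative lists, which did not overlap (exact permutation p = 0.33, two-sided, the lowest possible). The ratio of covered length was 1.09 at these genes and 1.21 over the whole lists.

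**Figure D1:**
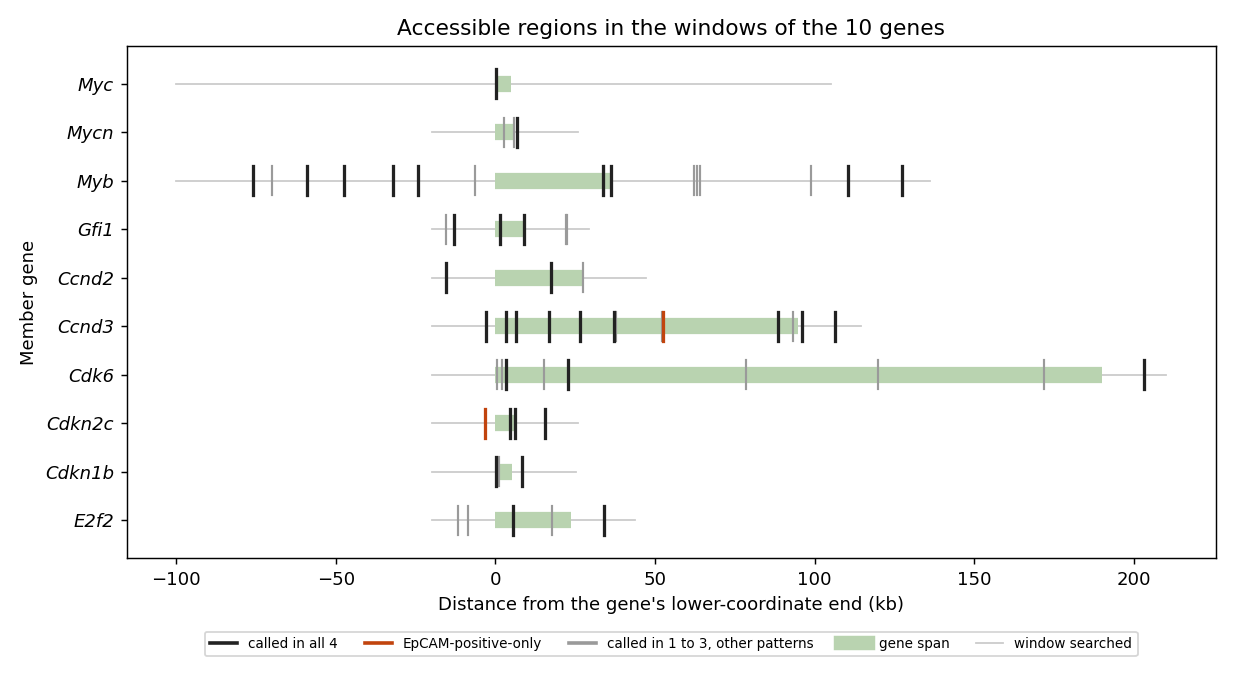
Position of the 63 regions at the 10 genes. The horizontal axis is the distance of the region's strongest summit from the gene's lower-coordinate end in kb, each row is a gene, green bars are gene spans, black ticks are regions called in all 4 lists, red ticks the 2 EpCAM-positive-only regions and grey ticks regions with other patterns; Myc has 1 tick in its window and Myb 16.

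**Figure D2:**
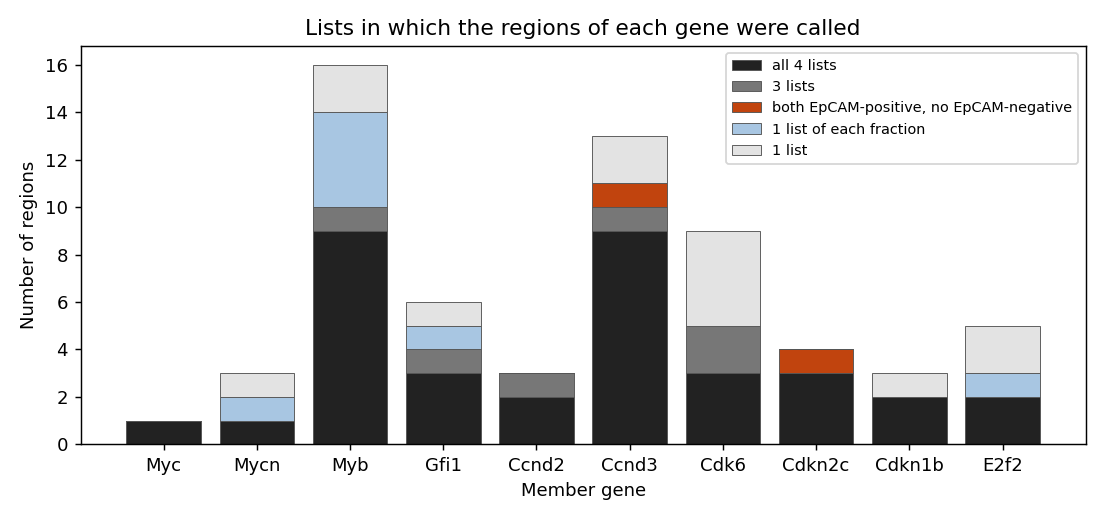
Number of regions per gene (vertical axis) by the lists in which they were called. Black parts of the bars, called in all 4 lists, range from 1 at Myc and Mycn to 9 at Myb and Ccnd3, and the 2 red parts are the EpCAM-positive-only regions at Ccnd3 and Cdkn2c.

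Where a region was called in all 4 lists, summit fragments were divided by the library's median over all 16761 such regions (31 and 32 in the EpCAM-positive, 25 in each EpCAM-negative library). A region is called higher in a fraction when the scaled values of the fractions did not overlap and their means differed by at least 1.5 times. Of the 35 regions at the 10 genes, 0 were higher in the EpCAM-positive fraction, against 3.91% of all 16761, and 2 (5.71%) were higher in the EpCAM-negative fraction, against 6.31%. The 2 lay within Ccnd3 and beyond the end of Myb. The count of the EpCAM-negative fraction was 4 and 3 without EpCAM-positive replicates 1 and 2, and 4 and 1 without EpCAM-negative replicates 1 and 2 (11.4, 8.11, 10.5 and 2.78% of shared regions, against 8.48, 9.44, 9.4 and 6.53% over all). Without a minimum ratio, scaled values did not overlap at 18 of 35 regions (51.4%, against 43.7% of all), 14 of them lower in the EpCAM-positive fraction (40% of the 35, against 24.4% of all 16761). The log2 ratio of EpCAM-positive over EpCAM-negative scaled fragments had a median of −0.13 at the 35 regions, from −0.87 to 0.40, and of −0.03 over all 16761. It was below 0 at 26 of 35 (74.3%, against 53.3% of all). The median moved with the EpCAM-negative libraries: it was −0.01 without replicate 2 and −0.26 without replicate 1 of that fraction. The median was −0.26 at the 8 regions outside the genes, −0.20 at the 10 inside them away from a start, −0.13 at the 9 over the start of another gene and 0.00 at the 8 over the genes' own starts. Over all shared regions it was 0.01 at RefSeq starts and −0.06 elsewhere.

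**Figure D3:**
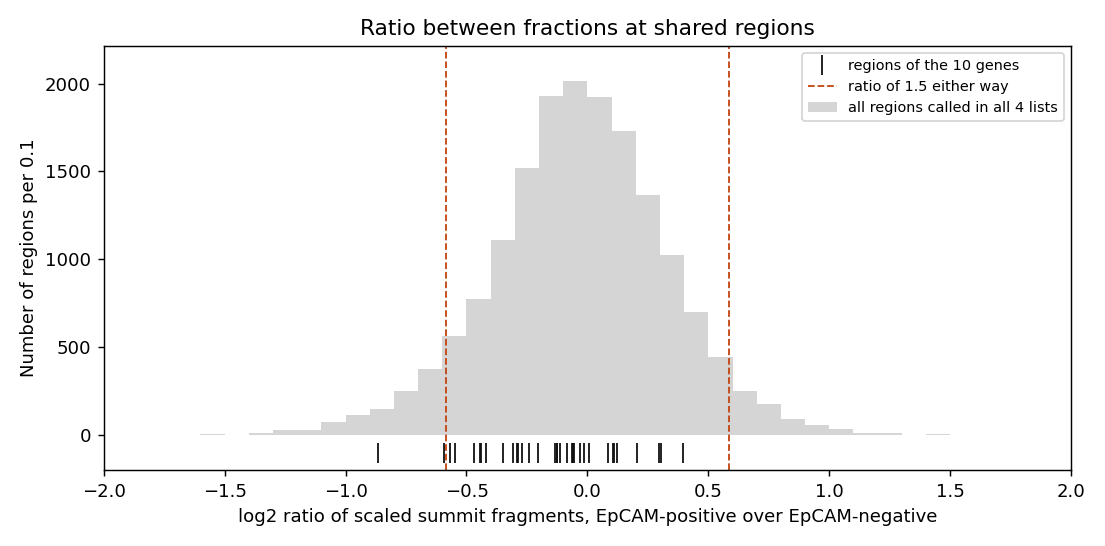
Distribution of the log2 ratio of scaled summit fragments, EpCAM-positive over EpCAM-negative (horizontal axis), over all 16761 regions called in all 4 lists (grey bars, number of regions per 0.1). Black ticks under the bars are the 35 regions of the 10 genes, from −0.87 to 0.40, and dashed lines mark a ratio of 1.5 in each direction.

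Myc encodes the growth-promoting transcription factor MYC (chromosome 15, 61985341 to 61990361). Its window of 205 kb, which reaches into the lncRNA gene Pvt1, held 1 region, over the lower-coordinate end of the gene at chr15:61984767-61985952. It was called in all 4 lists, with 52 and 77 summit fragments for EpCAM-positive and 49 and 54 for EpCAM-negative libraries. After scaling the fractions overlapped, with a ratio of 0.99. No other peak lay within 100 kb, whereas the median protein-coding gene had 6 regions in such a window, and 21.2% of genes had 1 or 0. The nearest region called in a single fraction was EpCAM-negative-only and 834.6 kb away, with 6 and 5 fragments.

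Mycn, the paralogue N-MYC (chromosome 12, 12936093 to 12941836), had 3 regions, with 18 to 27 summit fragments. A region at chr12:12942251-12942810, with its summit 862 bp before the start, was called in all 4 lists with 26 and 27 fragments for EpCAM-positive libraries and 22 for each EpCAM-negative one (ratio 0.96). The start itself (chr12:12941690-12942067) was called in EpCAM-negative replicate 2 alone, with 18 fragments, and the nearest peaks of the other 3 lists were 184 to 323 bp away. A region inside the gene was called in replicate 1 of each fraction, with 25 and 22 fragments. The start of Mycn was thus not called in either EpCAM-positive list or in EpCAM-negative replicate 1, while its near upstream flank was called in each of the 4 lists.

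Myb encodes the transcription factor c-MYB and is read from the minus strand (chromosome 10, 21124930 to 21160984). Its window of 236.1 kb held 16 regions, 9 of them in all 4 lists. As many or more such shared regions were found in equal flanks of 9.25% of protein-coding genes, whose median was 3. The region over the start, chr10:21160736-21161657, had 32 and 30 fragments for EpCAM-positive and 21 and 28 for EpCAM-negative libraries, and the scaled fractions overlapped (ratio 1.00). The strongest region, by the highest −log10 q in any list as for the other genes, lay 32039 bp beyond the transcribed end, at chr10:21092424-21093339, with 90 and 88 against 84 and 83 fragments (ratio 0.85). By −log10 q it stood at or above at least 94.1% of the peaks in each list, whereas the start peak ranked at 32.4 to 55.7%. This distal region thus had more summit fragments than the promoter in all 4 libraries.

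Of the 9 shared regions at Myb, 1 was called higher in a fraction, and ratios ran from 0.55 to 1.08. The lowest, at chr10:21048674-21049122 inside the neighbouring gene Ahi1 and 76036 bp beyond the end of Myb, had 8 and 10 fragments for EpCAM-positive and 14 and 12 for EpCAM-negative libraries. Both EpCAM-negative values were higher, before and after scaling, and the region passed the 1.5 times rule (ratio 0.55), though not with no scaling (0.69). Its counting interval was wide, 0.28 to 1.04 at 95% (exact binomial, counting error only), and includes 1. On the far side, shared regions 74477 and 91281 bp upstream of the start had 24, 34, 23 and 33 and 61, 59, 60 and 58 fragments, in the order EpCAM-positive replicates 1 and 2, EpCAM-negative replicates 1 and 2. The latter overlapped the start of the lncRNA gene Gm33728. The 7 other regions of the window were called in 1 to 3 lists, with 9 to 26 fragments, and no region of the window was called in a single fraction's pair alone.

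Gfi1 encodes a zinc-finger repressor (chromosome 5, 107716655 to 107725805, minus strand) and had 6 regions in its window, 3 in all 4 lists. The region over its outer start, chr5:107725006-107726271, had 79 and 119 fragments for EpCAM-positive and 65 and 71 for EpCAM-negative libraries. EpCAM-positive replicate 2 stood above the other 3, and the scaled fractions overlapped (ratio 1.15). In replicate 1 of each fraction it had fewer fragments than the inner start of Ccnd3. The inner RefSeq start had no peak in any list. A region 1523 bp inside the other end of the gene, chr5:107717593-107718356, had 51 and 50 against 60 and 59 fragments. It was picked after its values were seen, as 1 of 4 member regions whose counting interval lay below 1 (ratio 0.67, 0.51 to 0.89). The interval holds counting error only. Such intervals were not computed over all shared regions, so the count of 4 is not a result about these genes. Both EpCAM-negative libraries were higher there, but the ratio missed the 1.5 times rule, except with scaling by the lowest common background (0.634).

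The D-type cyclin genes differed in shared regions per 100 kb of window, with 2.98 at Ccnd2 and 6.68 at Ccnd3. Ccnd2, which encodes cyclin D2 (chromosome 6, 127125162 to 127152188), had 3 regions. The region just outside its higher-coordinate end, chr6:127152358-127153019, was called with 30 fragments in EpCAM-positive replicate 1 and with 23 and 22 in the EpCAM-negative libraries, and not in EpCAM-positive replicate 2, whose nearest peak was 9684 bp away. The strongest region of the window was over the start of the neighbour Tigar (37, 38, 27 and 38 fragments, ratio 0.92). A region inside the gene, chr6:127142212-127142674, had 29 fragments in each EpCAM-positive library, against 19 and 16 in the other fraction. Both EpCAM-positive values were higher, and its ratio of 1.32 (counting interval 0.85 to 2.06) was the highest of the 35, below the 1.5 times rule.

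Ccnd3 encodes cyclin D3, which thymocytes need for the expansion that follows the pre-T cell receptor signal (chromosome 17, 47505051 to 47599689). Its 13 regions, 9 of them in all 4 lists, made 6.68 shared regions per 100 kb of window, at or above which 5.15% of protein-coding genes lay (median 1.42). Cdkn2c, with 6.54 (5.55% at or above), and Gfi1, with 6.1 (6.89%), were close to it. RefSeq gives the gene an outer and an inner start. The inner start (chr17:47593308-47593985) was called in all 4 lists, with 87 and 54 fragments for EpCAM-positive and 70 and 49 for EpCAM-negative libraries. Replicate 1 was higher than replicate 2 in each fraction, and the fractions overlapped (ratio 0.94). The outer start had no peak in any list. The strongest region of the window, 2861 bp before the outer start, was over the start of Taf8, a subunit of the general transcription factor TFIID (123, 135, 94 and 96 fragments, ratio 1.08), except that in EpCAM-negative replicate 2 a region inside the gene, with 126 fragments, was higher. Both starts of Ccnd3 were thus alike in the 2 fractions in being called or not called.

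Between the 2 starts of Ccnd3 lay a row of 5 regions that were called in all 4 lists, with 26 to 126 summit fragments. The strongest of them, chr17:47531293-47531974 and 26574 bp inside the outer start, had 78 and 106 fragments for EpCAM-positive and 94 and 126 for EpCAM-negative libraries. These values overlapped before scaling. After it they were 71.1 and 93.6 against 106 and 142, and the region passed the rule (ratio 0.66, counting interval 0.54 to 0.81). It did not pass with median-of-ratios scaling, an alternative chosen after seeing the data (ratio 0.68), or with no scaling (0.84). With scaling by the lowest common background it passed (0.625). The region 3205 bp inside the outer start had 54 and 52 against 60 and 63 fragments (ratio 0.68). It missed the rule, except with scaling by the lowest common background (0.644). The other 3 of the 5 had ratios of 0.96 to 1.06. The EpCAM-positive-only region of the gene, chr17:47557296-47557614, was weak, with 11 and 9 fragments, and a peak of EpCAM-negative replicate 2 with 10 fragments lay 58 bp from it. When peaks within 200 bp were merged it was no longer single-fraction.

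**Figure D4:**
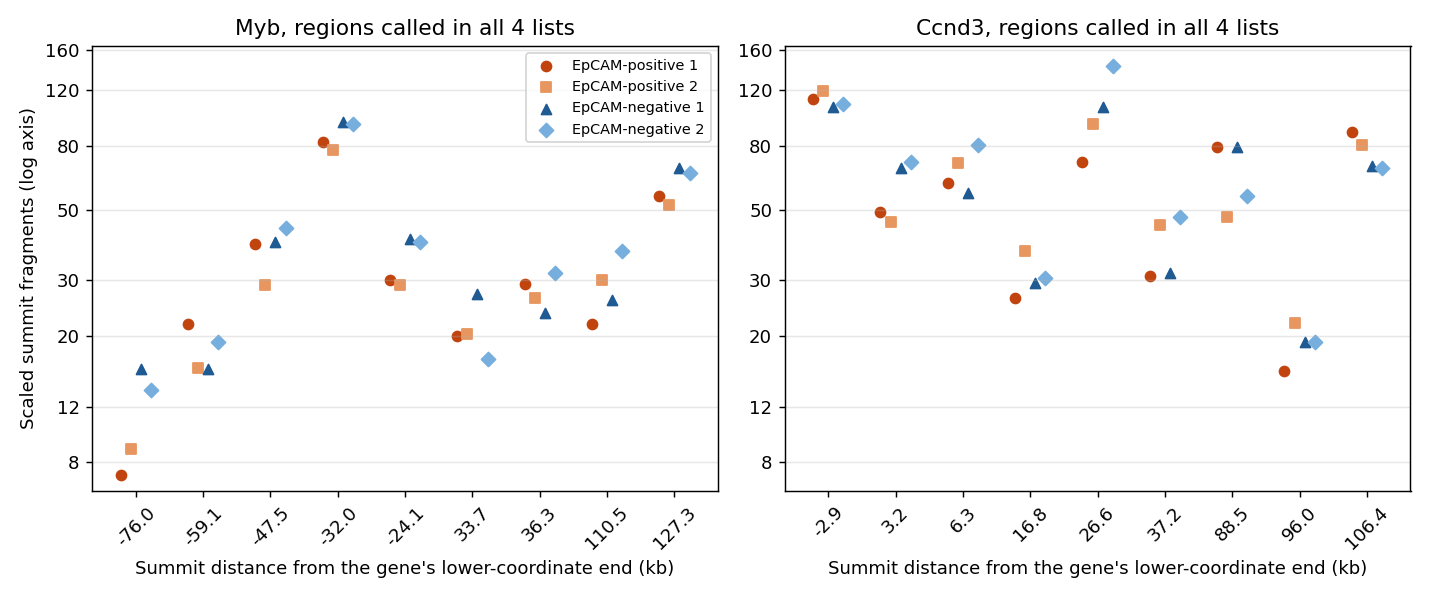
Scaled summit fragments (log axis) at the 9 shared regions of Myb (left) and of Ccnd3 (right), placed by the distance of the summit from the gene's lower-coordinate end in kb. Points are single libraries; the 2 regions that passed the 1.5 times rule, where both EpCAM-negative points lie above both EpCAM-positive points, are the leftmost of Myb (7.29 and 8.83 against 15.8 and 13.6) and the fifth of Ccnd3.

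Cdk6, the kinase partner of the D-type cyclins (chromosome 5, 3341004 to 3531008), had 9 regions in a window of 230 kb, 3 in all 4 lists. The region over its RefSeq start, chr5:3343414-3344578, had 55 and 56 fragments for EpCAM-positive and 43 and 38 for EpCAM-negative libraries. The EpCAM-positive values were higher before scaling (ratio 1.37) and, by a small margin, after it (1.09). With scaling by the lowest common background the fractions overlapped (1.02). The strongest region was over the start of the neighbour Fam133b, with 60 and 82 against 74 and 79 fragments (ratio 0.74). The other shared region, inside the gene, had 16 and 16 against 15 and 19. Within the gene, 6 regions were called in 1 to 3 lists, with 7 to 30 fragments. EpCAM-negative replicate 1 called none of these 6.

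The kinase inhibitor genes had the highest and some of the lowest starts. Cdkn1b encodes p27, a CIP/KIP inhibitor that holds cells in quiescence (chromosome 6, 134920401 to 134925525). Its start region, chr6:134920063-134920923, had 167 and 141 fragments for EpCAM-positive and 149 and 133 for EpCAM-negative libraries. The fractions overlapped before scaling, and after it they did so with a ratio of 0.87. By −log10 q it stood at or above 93.3 to 97.1% of the 6969 shared regions at RefSeq starts in each list. A shared region 8243 bp past the start, over the beginning of the lncRNA gene Lockd, had 47 and 54 against 55 and 47 fragments (ratio 0.79). No region of the window was called in a single fraction's pair alone.

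Cdkn2c encodes p18, an INK4 inhibitor of CDK4 and CDK6 (chromosome 4, 109660876 to 109666756, minus strand), and had regions at both of its RefSeq starts. At the outer start (chr4:109666771-109667121) the fragments were 23 and 34 for EpCAM-positive and 29 and 18 for EpCAM-negative libraries, which overlapped (ratio 0.96). At the inner start (chr4:109665372-109666119) they were 23 and 36 against 20 and 18, which overlapped after scaling (ratio 1.23), and the peak of EpCAM-negative replicate 2 did not reach the promoter window. The strongest region of the window was over the start of the neighbour Faf1, with 59 and 51 against 48 and 48 fragments (ratio 0.91). The EpCAM-positive-only region, chr4:109657459-109657708, lay 3318 bp outside the gene at the start of the lncRNA gene 9630013D21Rik, with 10 and 11 fragments. The nearest peaks of the EpCAM-negative lists were 7742 and 8074 bp away, so this region had no close counterpart.

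E2f2 encodes an E2F factor (chromosome 4, 136172274 to 136196057) and was the only gene of the 8 with a RefSeq promoter window at which no list had a peak over a start. Its outer and inner starts both had 0 of 4 lists. Over all protein-coding promoter windows, 52% had no peak in any list and 38.5% had one in all 4. A shared region between these starts, chr4:136177346-136178135, had 24 and 23 fragments for EpCAM-positive and 19 and 26 for EpCAM-negative libraries (ratio 0.83), with summits spread over 479 bp. The strongest region of the window was over the start of the neighbour Asap3 (27, 23, 16 and 27 fragments, ratio 0.92). The 3 others were called in 1 or 2 lists with 8 to 12 fragments.

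Start regions called in all 4 lists were put in order of their mean scaled fragments, which EpCAM-positive replicate 2 raised at Gfi1. Ccnd2 and Mycn, whose start regions were called in fewer lists, and E2f2, with none, were left out. The order ran from Cdkn1b (149) through Gfi1 (82.7), Ccnd3 at its inner start (65.4), Myc (57.9), Cdk6 (47.8) and Myb (27.8) to the outer (26.0) and inner (23.9) starts of Cdkn2c. Ranges over the 4 libraries did not overlap between Cdkn1b (124 to 168) and Gfi1 (72.0 to 105), or between Cdk6 (42.9 to 50.1) and Myb (23.7 to 31.6). Gfi1, Ccnd3 (47.7 to 79.3), Myc (47.4 to 68.0) and Cdk6 overlapped each with its neighbour, as did Myb and the starts of Cdkn2c (20.3 to 32.8). This order was not tested.

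**Figure D5:**
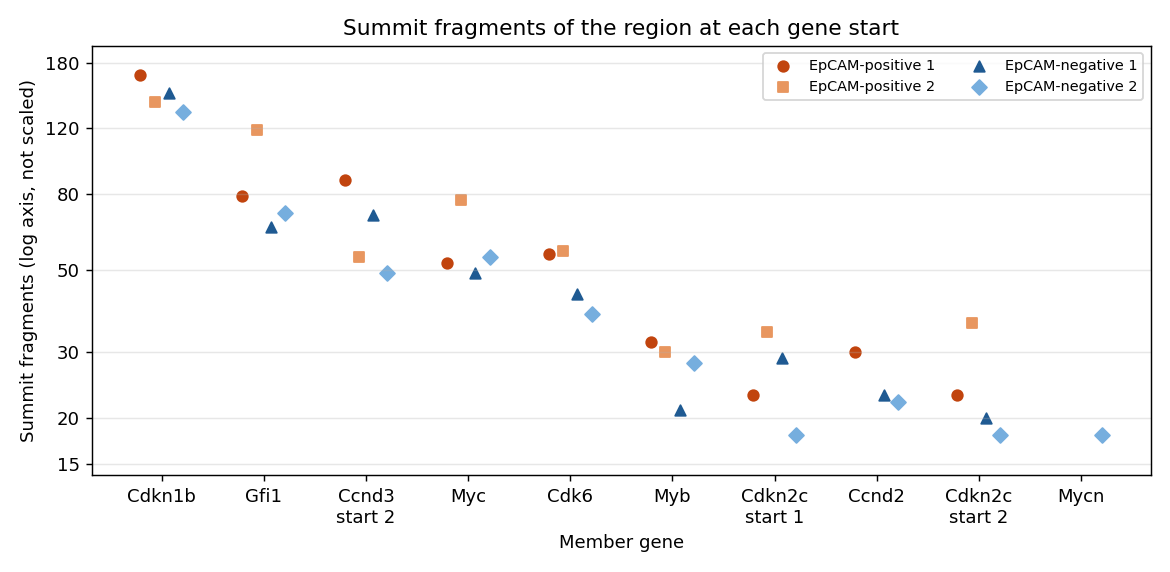
Summit fragments (log axis, not scaled) in each library for the region at the start of each gene, ordered by their mean. Points are single libraries; Cdkn1b stands highest at 133 to 167, Ccnd2 lacks a point for EpCAM-positive replicate 2, Mycn has a point for EpCAM-negative replicate 2 alone, and E2f2 had no peak at a start.

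Other genes of the pathway, from lists that hold none of the 10, were mostly called in all 4 lists as well. For 50 genes of the cell cycle and the MYC, MYB and GFI families, 172 regions were found within 20 kb, and 49 genes (98%) had at least 1 in all 4 lists, against 62.9% of all protein-coding genes. Of the 172, 99 (57.6%) were called in all 4 lists, 8 (4.65%) were EpCAM-positive-only and 2 (1.16%) EpCAM-negative-only, against 46.3, 4.4 and 1.72% of all regions. The former were in or near Cdk4 (25 and 26 fragments), Ccnb2 (7 and 7), E2f7 (6 and 7), Tfdp2 (8 and 8), Lin9 (11 and 15), Lin54 (8 and 10), Mga (12 and 12) and Mlxip (8 and 8). The latter were inside Tfdp1, the dimer partner of E2F (7 and 9), and 11211 bp from Gfi1b, the GFI1 paralogue (10 and 9). Of the 99 shared regions, 2 (2.02%) were higher in the EpCAM-positive and 3 (3.03%) in the EpCAM-negative fraction, against 3.91 and 6.31% of all shared regions, with a median log2 ratio of −0.05. The cyclin and kinase list had 2 EpCAM-positive-only regions of 41, the pocket protein and E2F list 4 of 51, the MYC network 2 of 46, and the inhibitor list 0 of 24.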

How the data were processed

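ATAC-seq peak lists of 4 libraries were used, 1 per library, so peaks were not called on pooled libraries. Per the submitters' processing notes, MACS3, Bowtie2, Picard, SAMtools, bedtools, deepTools, FastQC, Trimmomatic and Trim Galore were used with the build mm10. Their versions and settings, duplicate removal and any shift for the transposase were not given in the sources used here. All deposited values are the authors': a fold enrichment, a −log10 p and −log10 q, and a display score that was not used. Summit fragments and background were solved from fold = (fragments + 1)/(background + 1) and a Poisson p, tolerance 0.01 on −log10 p, background at least 0.2. All peaks were solved, and 1.55 to 3.92% per list had a second solution within tolerance, where the closest was kept. Solver and calls were tested on simulated data. The calls were simulated with Poisson counting error alone and no further spread between libraries. This does not show how the 1.5 times rule behaves at the spread of these libraries.

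Where a list had several peaks in a region, the peak of highest −log10 q was used. Starts are RefSeq GRCm38.p6 windows from 250 bases before to 50 after a start. For Myc and Ccnd2, whose windows were not found, a summit within 1000 bp of a gene end was used. Exons and introns were not annotated. The named regions are those at starts, the strongest per gene, single-fraction regions and those passing the 1.5 times rule; the others described were chosen after their values were seen. Members and lists were chosen with earlier results of these data known. Libraries with the same number deviated together (r = 0.16 over 16761 shared regions, after removing the fraction means). With 2 libraries per fraction, this removal gives both pairs the same r by construction. With 2 pairs and no label that ties the numbers, the libraries were not taken as pairs. Analyses used Python 3.11.15, numpy 2.4.6, pandas 2.3.3 and scipy 1.17.1.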

Additional observations from a re-analysis of the deposited data

How the results depend on the processing

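Of 81 recomputed values, 56 were labelled the same, 23 moved with no change of sign and 2 changed sign. The 2 were the difference in peaks without EpCAM-negative replicate 1 and the median log2 ratio with no scaling. For counts, the same meant within 1.5 times, and for the median log2 ratio within 1 replicate SD. For the differences in peaks and in covered length it meant only an unchanged sign, whatever the size. With no scaling, which shifts the median of all shared regions from −0.03 to 0.30, the median log2 ratio was 0.21. Of the 35 shared regions, 3 then passed as higher in the EpCAM-positive and 0 in the EpCAM-negative fraction. Of all 16761 shared regions, 3337 and 227 did so. Scaling by the lowest common background (all shared regions −0.11) gave 4 higher in the EpCAM-negative fraction, against 1530 of all 16761. Median-of-ratios scaling, chosen after seeing the data, gave 1, against 911 of all 16761. The EpCAM-negative count was also 1 with lists of equal length (of 34, against 862 of all 16152). With −log10 q of at least 5 it was 1 as well (of 33, against 826 of all 15096). Gene spans plus 2 kb (of 20) and 50 kb each side (of 39) gave 1 too, against 1058 of all 16761. The Myb region that had passed lies 76036 bp from the gene, so both of these windows left it out by construction. The −log10 q of at least 5 set the same lower limit for every list. It left 60 regions at the 10 genes, 33 of them called in all 4 lists, 2 EpCAM-positive-only and 0 EpCAM-negative-only. Over all 29615 regions these counts were 15096, 1434 and 437. Gene spans plus 2 kb left 20 regions called in all 4 lists and 1 EpCAM-positive-only, fewer by construction. Windows of 50 kb gave 1 EpCAM-negative-only region of 70, against 623 of all 36224. They gave 1 region of 39 higher in the EpCAM-positive fraction, against 656 of all 16761. Merging within 200 bp left 1 EpCAM-positive-only of 58, against 1477 of all 33924. Leaving out each library gave 35 to 38 regions in all lists, 3 to 6 EpCAM-positive-only, 0 to 5 EpCAM-negative-only, 0 higher in the EpCAM-positive and 1 to 4 in the EpCAM-negative fraction. Over all shared regions, 5.41 to 7.6% were then higher in the EpCAM-positive fraction. The median log2 ratio ran from −0.26 to −0.01, the difference in peaks from −1 (without EpCAM-negative replicate 1) to 7 and that in covered length from 0.973 to 2.98 kb. With the replicate number as a block the differences stayed 3 peaks (exact p = 1) and 1.98 kb (exact p = 0.5, the smallest that 2 pairs allow). Regions of about 10 fragments lie near the lists' detection limit, so a missing call there does not show closed chromatin.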

Other observations

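Single-fraction regions also lay outside the windows. The nearest EpCAM-positive-only region to Ccnd2 was 45 kb from the gene (8 and 11 fragments). The nearest EpCAM-negative-only regions to E2f2 and Cdk6 were 44.6 kb (8 and 13) and 75.9 kb away (6 and 9). For Mycn, no region called in a single fraction's pair lay within 2874 kb.

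At 7 of the 10 genes the strongest region of the window was not over the gene's own start, taking the highest −log10 q in any list. At Ccnd2, Ccnd3, Cdk6, Cdkn2c and E2f2 it was over the start of a neighbour (Tigar, Taf8, Fam133b, Faf1 and Asap3), at Myb 32039 bp beyond the end of the gene, and at Mycn 862 bp before the start. In EpCAM-negative replicate 2 it was instead inside Ccnd3, and in both EpCAM-negative lists the strongest of Gfi1 was inside the gene rather than over its start.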
